A study of Rattus norvegicus with 30 samples.

Results

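Ptprd, Plcb1, Vps13b, Esrrg, Slc8a1, Mipol1 and Ppp2r2b are 7 rat genes that each occupy more than 300 kb of the genome and that were seen to be lower 6 h after irinotecan. They were selected from earlier results on these same arrays, by their length and by their lower signal at 6 h than at 0 h, so that difference is described here with no test. Their probe sets were those that the array's annotation pairs with exactly 1 gene symbol, which gave 11 probe sets of the 7 genes, among 31042 probe sets and 14217 named genes in all. The question followed here was whether their levels had returned by 24 h.

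RNA was measured in whole-organ samples of stomach, jejunum and colon from 30 DA rats, all female and 10 weeks old. Rats killed at 0 h had no irinotecan, and rats killed at 1, 6, 24 or 72 h had 200 mg/kg of it by intraperitoneal injection under light halothane anaesthesia. No rats without irinotecan were measured at the later times. In differences from 0 h, irinotecan, injection, anaesthesia and time of day therefore cannot be told apart. Each time had 6 rats, whose RNA was combined into 2 pools of 3 for each tissue, so every one of the 15 groups had 2 arrays (Affymetrix rat genome arrays) and the same animals supplied all 3 tissues. The rats were of 1 sex and 1 strain, and pooling hides the spread between animals, so each error below is the spread between pools. In whole tissue, fewer cells of a type and less RNA per cell cannot be told apart.

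Irinotecan is a prodrug whose active product traps topoisomerase I on nicked DNA. That enzyme relaxes the supercoils that build up as RNA polymerase moves along a gene, and inhibitors of it are known from cultured mammalian cells to lower transcripts of long genes. The 7 genes share great length because they were selected for it, and their products are of different kinds. Ptprd is a receptor tyrosine phosphatase of cell contacts, Plcb1 a phospholipase C that makes inositol trisphosphate and diacylglycerol below Gq-coupled receptors, and Slc8a1 the plasma membrane exchanger that moves calcium out of the cell against sodium. Ppp2r2b is a regulatory subunit of protein phosphatase 2A known mostly from neurons. Esrrg is an orphan nuclear receptor of oxidative metabolism that in mice is needed for the acid pump genes of the stomach, and Vps13b is a lipid transfer protein of the Golgi whose human counterpart is mutated in Cohen syndrome. Mipol1 encodes a coiled-coil protein.

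Genomic spans were taken from the RefSeq gene table of the GRCr8 assembly. Ptprd spans 2322 kb, Plcb1 711.3 kb, Esrrg 617.8 kb, Vps13b 576.6 kb, Ppp2r2b 452.6 kb, Mipol1 335.1 kb and Slc8a1 324.2 kb. The median of the 14161 measured genes with a known span was 22.34 kb, and 428 of them (3.02%) spanned at least 300 kb. The 7 genes lay between the 97.38th and the 99.98th percentile of span. A probe set reads a short stretch of a transcript, and its place along the gene was not analysed here.

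The RefSeq table of start sites held 12 promoters for 6 of the 7 genes, each with 250 bases before and 50 after the start. The 4 printed here belong to Ptprd, whose starts lie 1932 kb apart on chromosome 5, to Plcb1, which had the largest difference in the colon at 6 h, and to Mipol1, which had the smallest there. They are shown for the comparison of starts between genes that fell together in the colon and 1 with no clear fall there. Mipol1 had little colon signal to lose, with a mean of 5.92 at 0 h, against 7.03 for the median probe set. In the stomach its difference at 6 h was -1.27. Capitals mark a match, on either strand, to the GC box letters GGGCGG, to the TATA box letters TATAAA, or to the letters CCAAT of the box so named. None of the 3 motifs contains another.
Ptprd, outer start, GRCr8 chr5:97415449-97415748, minus strand: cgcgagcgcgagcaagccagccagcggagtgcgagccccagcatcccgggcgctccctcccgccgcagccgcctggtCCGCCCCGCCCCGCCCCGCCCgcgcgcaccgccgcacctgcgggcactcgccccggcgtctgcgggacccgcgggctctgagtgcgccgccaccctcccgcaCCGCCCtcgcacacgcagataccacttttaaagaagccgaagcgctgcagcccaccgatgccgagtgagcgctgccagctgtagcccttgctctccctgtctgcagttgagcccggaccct
Ptprd, inner start, GRCr8 chr5:95483882-95484181, minus strand: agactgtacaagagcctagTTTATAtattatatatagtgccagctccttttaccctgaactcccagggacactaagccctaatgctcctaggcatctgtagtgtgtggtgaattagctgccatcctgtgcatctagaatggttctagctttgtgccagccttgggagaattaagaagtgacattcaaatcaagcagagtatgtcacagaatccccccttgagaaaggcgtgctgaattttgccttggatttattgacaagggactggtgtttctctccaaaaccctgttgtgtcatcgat
Plcb1, GRCr8 chr3:142512515-142512814, plus strand: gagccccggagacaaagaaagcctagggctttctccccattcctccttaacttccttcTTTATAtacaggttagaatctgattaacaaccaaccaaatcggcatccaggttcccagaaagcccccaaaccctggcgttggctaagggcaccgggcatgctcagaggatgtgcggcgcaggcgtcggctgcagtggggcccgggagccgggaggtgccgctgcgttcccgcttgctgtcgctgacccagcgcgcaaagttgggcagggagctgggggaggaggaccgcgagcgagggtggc
Mipol1, GRCr8 chr6:80490080-80490379, plus strand: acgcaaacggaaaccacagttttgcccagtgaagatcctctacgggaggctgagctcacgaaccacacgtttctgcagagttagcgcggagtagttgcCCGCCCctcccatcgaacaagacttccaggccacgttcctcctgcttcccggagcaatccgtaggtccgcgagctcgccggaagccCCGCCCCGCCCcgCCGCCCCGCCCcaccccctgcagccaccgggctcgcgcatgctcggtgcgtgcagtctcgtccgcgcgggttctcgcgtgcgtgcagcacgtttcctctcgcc
The outer Ptprd start was 74.3% G and C with 5 GC box matches, and the Mipol1 start was 66.7% with 5. The inner Ptprd start, at 44.3%, and the Plcb1 start, at 61.7%, had no GC box and 1 TATA box match each. A GC box was present in 4 of the 12 promoters of these genes, against 33.1% of 33465 rat promoters of the same length, a TATA box in 2 against 14.2%, and a CCAAT box in 5 against 37.5%. A match is a run of letters in this window and nothing more.

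All values are log2 signals, in which a difference of -1 means a level lower by a factor of 2, and probe sets are named by the array's identifiers. Where a gene had several probe sets, the one with the highest mean over all arrays represents it. Array medians lay between 6.97 and 7.06, so no array was brighter than the rest as a whole, and the correlation of the 2 arrays of a group ran from 0.9469 in the stomach at 72 h to 0.9959 in the jejunum at 6 h. Some arrays stood apart. The probe sets for the 3' end of GAPDH exceeded those for its 5' end by 0.56 in stomach array 1 and 0.82 in jejunum array 1 at 24 h, and by at most 0.38 on every other array. The list of 7 pancreatic acinar genes had a median of 13.44 in stomach array 1 and 12.61 in colon array 2 at 72 h, against at most 6.97 in the 0 h arrays of the 3 tissues, and the list of 3 gastric mucous genes had medians of 10.14 and 8.95 in the colon at 24 h, against 7.11 and 6.60 in the colon at 0 h. The list of 4 gastric parietal and chief cell genes had a median of 9.05 in colon array 1 at 24 h, against 6.52 in array 2. For the list of 3 squamous epithelial genes, the stomach arrays at 0 h had medians of 7.35 and 10.04. The medians of that list in the stomach were 11.04 and 8.49 at 24 h, and 8.42 and 11.24 at 72 h. The part of these differences between pools in the members' values was not tested.

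**Figure D1:**
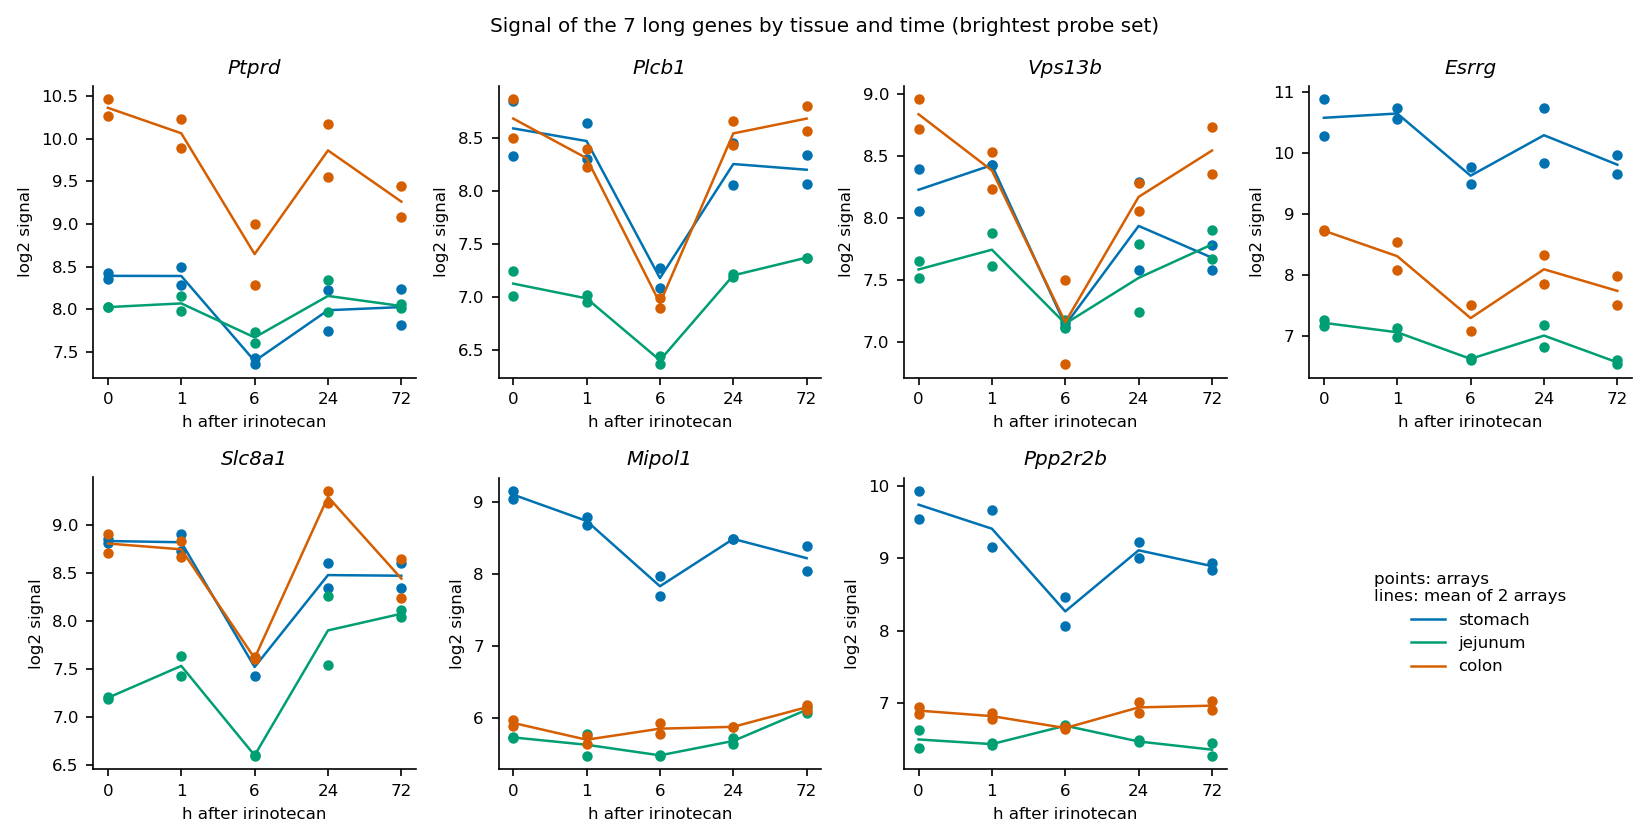
Log2 signal of the 7 genes (brightest probe set) at each time on an evenly spaced axis of hours, 1 point per array and a line through the mean of 2 arrays, for stomach, jejunum and colon. In the stomach all 7 lines dip at 6 h, in the colon 5 dip by more than a factor of 2, Ppp2r2b has -0.24 and Mipol1 -0.08 from 0 h, and in the jejunum Ppp2r2b is higher at 6 h.

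At 6 h all 7 genes were lower than at 0 h in the stomach, with no overlap between the 2 arrays of each time. The median of their differences was -1.27 (from -1.47 for Ppp2r2b to -0.95 for Esrrg), against 0.01 for all 14217 genes. In the colon 6 of 7 did not overlap and the median was -1.44 (from -1.75 for Plcb1 to -0.08 for Mipol1), against 0.01 for all genes. In the jejunum 6 of 7 were lower without overlap, the median was -0.44 (from -0.73 for Plcb1 to 0.19 for Ppp2r2b) against -0.02 for all genes, and Ppp2r2b was the 1 gene that was higher. Of all probe sets, 21.6% were lower without overlap in the stomach, 33.3% in the jejunum and 21.6% in the colon, and 22.8%, 27.3% and 28.5% were higher. Since the genes were selected on this contrast, nothing is read from these counts.

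By the brightest probe sets, Plcb1 had the largest fall of the 7 genes in the jejunum and the colon. In the colon its 2 arrays read 8.87 and 8.51 at 0 h, 8.23 and 8.40 at 1 h, 6.90 and 6.99 at 6 h, 8.66 and 8.43 at 24 h, and 8.80 and 8.57 at 72 h. The 6 h arrays are by far the lowest, both 1 h arrays are also below both 0 h arrays, and the 24 h and 72 h arrays overlap those of 0 h. The difference from 0 h was -0.38 (95% interval -0.70 to -0.05) at 1 h, -1.75 (SE 0.15, or 3.36-fold) at 6 h, -0.14 (-0.47 to 0.18) at 24 h and 0.00 (-0.32 to 0.32) at 72 h. In the stomach it read 8.85 and 8.34 at 0 h, 7.27 and 7.08 at 6 h, and 8.45 and 8.06 at 24 h, so the 24 h arrays again overlap those of 0 h. In the jejunum the differences were -0.73 (SE 0.09) at 6 h and 0.08 (-0.13 to 0.29) at 24 h.

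Slc8a1 was above its 0 h level in the jejunum and the colon at 24 h. In the jejunum its arrays read 7.19 and 7.21 at 0 h, 7.43 and 7.64 at 1 h, 6.61 and 6.60 at 6 h, 8.26 and 7.54 at 24 h, and 8.11 and 8.04 at 72 h. Both 24 h arrays and both 72 h arrays lie above both 0 h arrays, by means of 0.70 (0.27 to 1.13) and 0.88 (0.45 to 1.31). In the colon it read 8.91 and 8.71 at 0 h, 8.67 and 8.83 at 1 h, 7.60 and 7.63 at 6 h, 9.36 and 9.23 at 24 h, and 8.65 and 8.24 at 72 h. The colon at 24 h was thus the highest of the 15 groups, 0.49 (0.17 to 0.80) above 0 h. In the stomach the 24 h arrays (8.61 and 8.35) stayed below those of 0 h (8.82 and 8.85), a difference of -0.36 (-0.66 to -0.05).

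A list of 8 smooth muscle genes, all measured, was read beside Slc8a1 in the jejunum and the colon. Its genes did not all move alike. Their 24 h minus 0 h differences ran from 0.12 to 1.04 (median 0.40) in the jejunum. In the colon they ran from -0.40 to 0.77 (median 0.17). The summed linear signal of the list in the jejunum was 10744 and 13018 at 0 h, 22400 and 11655 at 24 h, and 19756 and 21311 at 72 h. In the colon the sum was 48125 and 39263 at 24 h, against 37533 and 35376 at 0 h. The array with the higher sum of each 24 h pair is also the one with more Slc8a1 signal. Jejunum array 2 at 24 h had a sum between those of 0 h. Its median log2 signal of the list was 10.53, above the 10.11 and 10.26 of the 0 h arrays. The Slc8a1 signal of that array, 7.54, was also above both 0 h arrays. At 6 h the sum was 12423 and 12546 in the jejunum, 37453 and 36464 in the colon, and 35912 and 35655 in the stomach. The stomach arrays at 0 h had 30432 and 40325. In each tissue both 6 h sums lay between the 2 sums of 0 h. The median log2 signal of the list, by contrast, was above both 0 h arrays at 6 h in each tissue. In the stomach it was 12.43 and 12.41 at 6 h, against 11.93 and 12.39 at 0 h. In the jejunum it was 10.52 and 10.62, against 10.11 and 10.26, and in the colon 12.36 and 12.26, against 12.18 and 12.08. Slc8a1 was lower at 6 h than at 0 h in all 3 tissues. The part of muscle content in the values at 6 h, 24 h and 72 h was not tested.

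The probe sets of Slc8a1 disagree. The second one, 1370588_a_at, was dim, at the 20.23rd percentile of mean signal, and its group means stayed between 6.06 and 6.31 in all 15 groups. Its differences at 6 h were 0.12 (SE 0.10) in the stomach, 0.03 (SE 0.11) in the jejunum and 0.18 (SE 0.13) in the colon. Over the deviations of the 15 groups from the mean of their tissue its correlation with the bright probe set was -0.23, a description of 15 points that share arrays.

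Ppp2r2b fell at 6 h mainly in the stomach, where its level was highest. Its stomach arrays read 9.93 and 9.55 at 0 h, 9.67 and 9.15 at 1 h, 8.47 and 8.07 at 6 h, 9.00 and 9.22 at 24 h, and 8.94 and 8.85 at 72 h. Neither the 24 h nor the 72 h arrays reach those of 0 h, with differences of -0.63 (-1.12 to -0.14) and -0.85 (-1.33 to -0.36). In the jejunum it read 6.68 and 6.70 at 6 h, against 6.62 and 6.38 at 0 h, and in the colon 6.68 and 6.64, against 6.95 and 6.85, differences of 0.19 (SE 0.10) and -0.24 (SE 0.11). All 10 jejunum and colon group means lay between 6.36 and 6.97, against 8.27 to 9.74 in the stomach.

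Ptprd was highest in the colon, and there it did not regain its 0 h level. The bright probe set, 1374591_at, read 10.46 and 10.26 at 0 h, 9.89 and 10.23 at 1 h, 8.29 and 9.00 at 6 h, 10.17 and 9.55 at 24 h, and 9.08 and 9.44 at 72 h. Both 24 h arrays and both 72 h arrays lie below both 0 h arrays, and the differences were -1.71 (SE 0.25) at 6 h, -0.50 (-1.06 to 0.06) at 24 h and -1.10 (-1.66 to -0.54) at 72 h. In the stomach it read 8.36 and 8.42 at 0 h, 7.36 and 7.43 at 6 h, and 8.23 and 7.75 at 24 h, so both 6 h and both 24 h arrays stay below those of 0 h. In the jejunum the differences were -0.36 (SE 0.12) at 6 h and 0.13 (-0.15 to 0.41) at 24 h.

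Of the other probe sets of Ptprd, 1376619_at followed the bright one with a correlation of 0.97 over the 15 group deviations and differences at 6 h of -0.68 in the stomach, -0.36 in the jejunum and -1.54 in the colon. The third, 1380683_at, was dim, at the 17.83rd percentile of mean signal. Its differences at 6 h were -0.10 (SE 0.08), -0.16 (SE 0.10) and 0.06 (SE 0.11) in the same order of tissues. In the stomach at 24 h it was 0.26 (0.09 to 0.44) above 0 h while the bright one was -0.40 (-0.83 to 0.02) from it.

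Vps13b had almost the same low level in all 3 tissues at 6 h, with means of 7.13 in the stomach, 7.15 in the jejunum and 7.16 in the colon. Its colon arrays read 8.96 and 8.72 at 0 h, 8.24 and 8.53 at 1 h, 6.82 and 7.50 at 6 h, 8.28 and 8.06 at 24 h, and 8.36 and 8.73 at 72 h. The 24 h arrays are below those of 0 h, with a difference of -0.67 (-1.15 to -0.19), and at 72 h they overlap them again. In the stomach the differences were -1.09 (SE 0.22) at 6 h, -0.29 (-0.79 to 0.20) at 24 h and -0.55 (-1.04 to -0.05) at 72 h, and in the jejunum -0.44 (SE 0.17), -0.07 (-0.45 to 0.32) and 0.20 (-0.18 to 0.59).

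Esrrg, the nuclear receptor, was below its 0 h level without overlap in all 3 tissues at 72 h. In the stomach it read 10.89 and 10.28 at 0 h, 10.74 and 10.56 at 1 h, 9.77 and 9.49 at 6 h, 10.75 and 9.85 at 24 h, and 9.97 and 9.65 at 72 h. The 24 h arrays lie far apart, one among those of 0 h and the other near those of 6 h, and array 1, the higher of the 2, is the one with the large GAPDH gap. The colon arrays read 8.72 and 8.73 at 0 h, 7.07 and 7.50 at 6 h, 8.32 and 7.86 at 24 h, and 7.50 and 7.97 at 72 h. Every colon array from 1 h on is below both 0 h arrays, with differences of -1.44 (SE 0.22) at 6 h, -0.64 (-1.13 to -0.14) at 24 h and -0.99 (-1.48 to -0.50) at 72 h. In the jejunum, where the gene was dimmest, it read 7.16 and 7.26 at 0 h, 6.60 and 6.63 at 6 h, 7.18 and 6.82 at 24 h, and 6.59 and 6.53 at 72 h. Both 72 h arrays there are as low as those of 6 h, a difference of -0.65 (-0.92 to -0.38) from 0 h.

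The second Esrrg probe set, 1394577_at, gave larger differences at 6 h in each tissue, -1.16 (SE 0.26) in the stomach, -1.14 (SE 0.11) in the jejunum and -1.90 (SE 0.25) in the colon. Its jejunum arrays read 6.42 and 6.44 at 0 h, 5.18 and 5.39 at 6 h, 5.90 and 5.66 at 24 h, and 5.77 and 5.95 at 72 h. Unlike those of the brighter probe set, both 72 h arrays lay above both 6 h arrays, by a mean of 0.58 (0.33 to 0.83). By this probe set the jejunum was still lower at 24 h, with a difference of -0.65 (-0.90 to -0.40), where the brighter one gave -0.21 (-0.48 to 0.06). Its jejunum group means, from 5.28 to 6.43, were all below the median probe set's 7.03, where signal over background limits what a difference can show.

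Mipol1 fell in the stomach and had little signal elsewhere. Its stomach arrays read 9.15 and 9.04 at 0 h, 8.79 and 8.68 at 1 h, 7.96 and 7.69 at 6 h, 8.48 and 8.48 at 24 h, and 8.39 and 8.04 at 72 h. No later array reaches either 0 h array, and the differences were -1.27 (SE 0.14) at 6 h, -0.61 (-0.93 to -0.30) at 24 h and -0.88 (-1.20 to -0.56) at 72 h. In the colon it read 5.77 and 5.92 at 6 h, against 5.96 and 5.89 at 0 h, which overlap, and in the jejunum 5.47 and 5.48, against 5.73 and 5.72. By 72 h it was above 0 h in the jejunum, by 0.38 (0.15 to 0.62), and 0.22 (-0.01 to 0.44) above it in the colon.

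**Figure D2:**
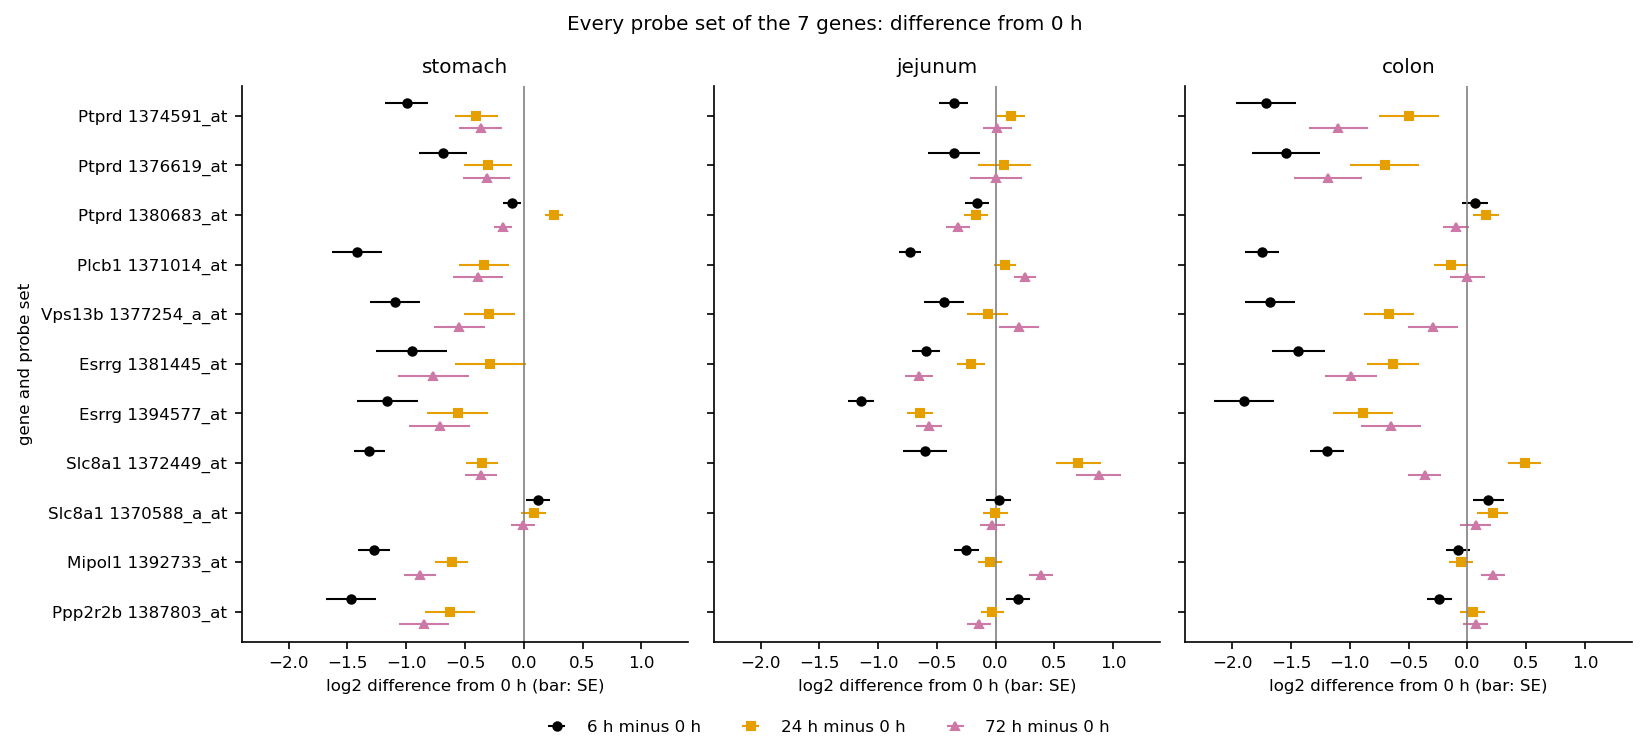
Log2 difference from 0 h at 6 h (circles), 24 h (squares) and 72 h (triangles) for each of the 11 probe sets, 1 panel per tissue, with bars of 1 standard error from the limma fit. The dim probe sets 1380683_at and 1370588_a_at stay within 0.33 of 0 in every tissue, where other probe sets of the same genes reach -1.71 and -1.31.

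Taken by tissue, the levels at 24 h lay closest to 0 h in the jejunum. The median of the 7 differences between 24 h and 0 h was -0.36 in the stomach (from -0.63 to -0.29, all 7 below 0), -0.03 in the jejunum (from -0.21 to 0.70, 4 below 0) and -0.14 in the colon (from -0.67 to 0.49, 5 below 0), with medians over all genes of 0.00, -0.01 and 0.02. Without overlap 4 genes were lower in the stomach, 0 in the jejunum and 4 in the colon, against 16.5%, 23.5% and 21.4% of all probe sets. Slc8a1 was the 1 gene higher in the jejunum and in the colon and 0 were higher in the stomach, against 24.7% of all probe sets in the stomach, 17.8% in the jejunum and 28.2% in the colon. The 95% interval excluded 0 for Slc8a1, Mipol1 and Ppp2r2b in the stomach, for Slc8a1 in the jejunum, and for Vps13b, Esrrg and Slc8a1 in the colon. These differences share the 0 h arrays that were used to select the genes, so they carry no p.

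Compared with 6 h, 24 h levels were higher without overlap for 7 of 7 genes in the stomach, 6 in the jejunum and 6 in the colon, against 18.4%, 18.2% and 17.9% of all probe sets. The median gains were 0.80, 0.38 and 1.01, and these share the 6 h arrays of the selection. Ppp2r2b in the jejunum was the 1 gene lower at 24 h than at 6 h, against 13.6%, 17.4% and 18.2% of all probe sets lower in stomach, jejunum and colon, and Mipol1 in the colon overlapped.

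At 72 h the stomach was again the tissue with all 7 genes below 0 h. The median difference was -0.55 in the stomach (from -0.88 to -0.36), 0.20 in the jejunum (from -0.65 to 0.88) and -0.29 in the colon (from -1.10 to 0.22). The arrays were lower without overlap for 6 genes in the stomach, 1 in the jejunum (Esrrg) and 3 in the colon (Ptprd, Esrrg and Slc8a1), against 29.5%, 43.8% and 26.5% of all probe sets. They were higher without overlap for 0 in the stomach, 4 in the jejunum and 1 in the colon (Mipol1), against 13.5%, 29.7% and 22.1%.

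The arrays of 1, 24 and 72 h took no part in the selection, so differences among them were tested with limma in each tissue, with Benjamini-Hochberg adjustment over all 31042 probe sets. At 1 h the median difference of the 7 genes from 0 h was -0.01 in the stomach (from -0.37 to 0.20), -0.06 in the jejunum (from -0.16 to 0.33) and -0.30 in the colon (from -0.46 to -0.06), so in the colon the 1 h arrays were not at the 0 h level. Compared with 1 h, none of the 11 probe sets was called different at 24 h, at an adjusted p under 0.05, in any of the 3 tissues. Few probe sets of any kind did, 0.0258% in the stomach, 0.271% in the jejunum and 0.76% in the colon. At an unadjusted p under 0.05 there were 3 member probe sets in the stomach, 2 in the jejunum and 1 in the colon, against 2277, 4502 and 4071 of all probe sets. The estimates were wide. In the stomach they ran from -0.49 (-0.99 to 0.00, adjusted p = 0.683) for Vps13b to -0.22 (-0.71 to 0.27, adjusted p = 0.814) for Plcb1, with all 7 below 0, and the missing calls do not show a return to the 1 h level. In the colon Slc8a1 had the largest value, 0.55 (0.23 to 0.86, adjusted p = 0.117).

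Between 24 h and 72 h, 3 member probe sets passed the test. Slc8a1 fell in the colon by 0.85 (difference -0.85, 95% interval -1.17 to -0.54, adjusted p = 0.0113), with 8.65 and 8.24 at 72 h, against 9.36 and 9.23 at 24 h, where 6.73% of all probe sets were called. Without colon array 1 of 24 h the value was -0.79 with an adjusted p of 0.0696. In the jejunum, where 12.9% of all probe sets were called, Mipol1 rose by 0.43 (0.20 to 0.67, adjusted p = 0.0274), with 6.15 and 6.07 at 72 h, against 5.63 and 5.72 at 24 h. This gene's jejunum level is below the median probe set's 7.03, and leaving out any 1 of 3 of the 4 arrays compared gave adjusted p from 0.0557 to 0.157.

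Esrrg fell in the jejunum by its bright probe set (difference -0.44, -0.71 to -0.17, adjusted p = 0.0418), while its other probe set gave 0.08 (-0.17 to 0.33, adjusted p = 0.652). The call was lost under quantile normalization (adjusted p = 0.0846), in a fit of all 30 arrays (0.281), and without jejunum array 1 of 24 h (-0.26, adjusted p = 0.113). Without that array, which has the large GAPDH gap, Slc8a1 (0.53, adjusted p = 0.00812) and Vps13b (0.54, adjusted p = 0.0213) were instead called higher at 72 h than at 24 h. In the stomach 0 member probe sets were called, against 0.00322% of all, with 1 at an unadjusted p under 0.05, the dim probe set of Ptprd.

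**Figure D3:**
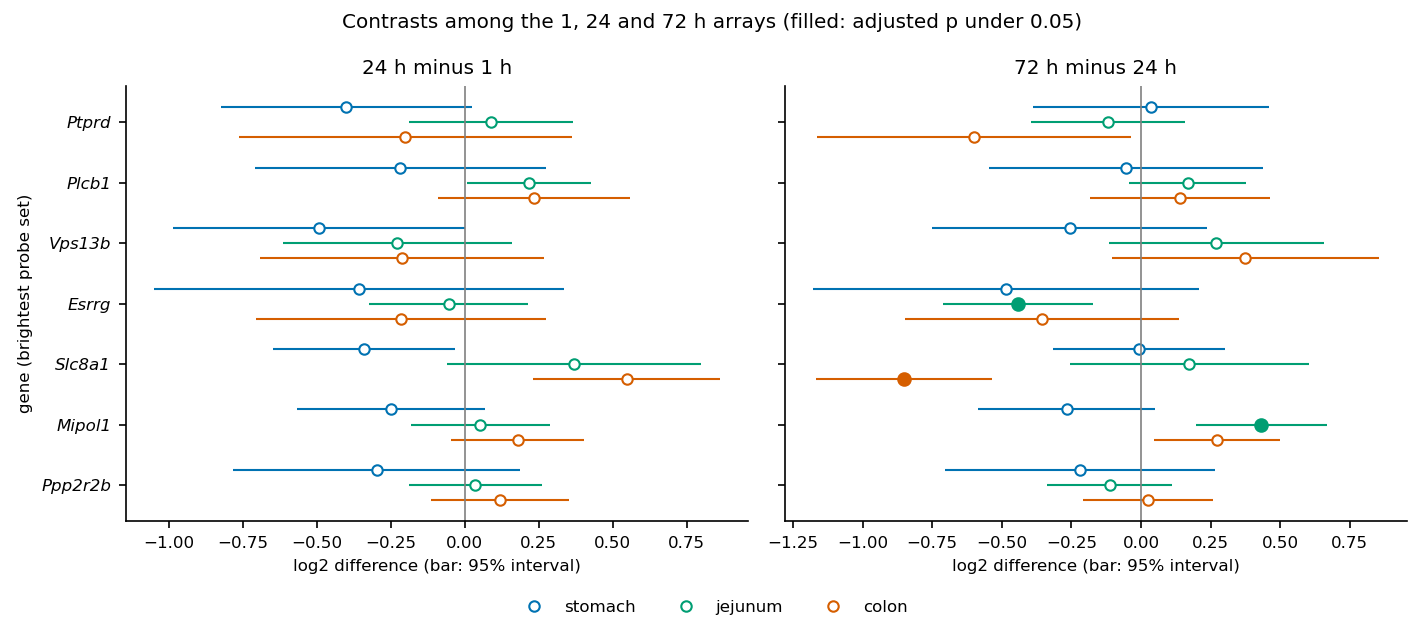
Log2 difference between 24 h and 1 h (left) and between 72 h and 24 h (right) for the brightest probe set of each of the 7 genes in stomach, jejunum and colon, with 95% intervals. The 3 filled points, Esrrg and Mipol1 in the jejunum and Slc8a1 in the colon between 72 h and 24 h, have an adjusted p under 0.05.

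The difference between 24 h and 1 h was also compared between tissues in 1 limma fit of all 30 arrays, by an F test of the interaction, which leaves out of account that the same rats gave all 3 tissues. It called 27 of all probe sets (0.087%) and none of the 11 member probe sets, of which 3 had an unadjusted p under 0.05, against 3821 of all. Slc8a1 had the smallest, with differences of -0.34 in the stomach, 0.37 in the jejunum and 0.55 in the colon. Its limma adjusted p for that interaction was 0.202.

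The 2 arrays of a group lay apart for these genes at 24 h, with median absolute gaps of 0.39 in the stomach and 0.36 in the jejunum, each the largest of the 5 times in its tissue, and 0.23 in the colon, where the gap was 0.36 at 72 h. At 24 h array 1 read higher than array 2 for 6 of 7 genes in the stomach, 5 in the jejunum and 6 in the colon. Over all probe sets the deviations of same-numbered arrays at 24 h correlated between tissues, at 0.50 for stomach and jejunum, 0.36 for jejunum and colon and 0.32 for stomach and colon, and the interaction test above treats them as independent. In the stomach and the jejunum array 1 is the one with the large GAPDH gap, and the smooth muscle sum in the stomach at 24 h was 49663 in array 1 and 28124 in array 2. The part of RNA quality and of tissue composition in these values was not tested. At 6 h the GAPDH gap lay between 0.14 and 0.38, inside the range of the other times.

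Members also differed in where they were expressed. This is a description, since a fall at 6 h can be seen only in a tissue where the gene has signal, and the selection is not independent of it. In the order of the 15 group means, the 5 stomach groups were the highest for Esrrg, Mipol1 and Ppp2r2b. For each of the 3 genes the lowest stomach group, 6 h, lay above the highest group of another tissue by more than the pooled spread of replicates (SD 0.28, 0.11 and 0.16), as 9.63 for Esrrg in the stomach at 6 h is above 8.72 in the colon at 0 h. Ptprd was ordered by the colon, whose 5 groups were the highest, and colon at 6 h (8.65) exceeded stomach at 0 h (8.39) by about the pooled SD of 0.25. For Plcb1, Vps13b and Slc8a1 stomach and colon alternated, and most neighbours in the order did not differ beyond the pooled SD.

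Long genes outside the 7 were then set beside them. Among genes whose brightest probe set had a mean at or above the median probe set, with the members left out, 55 spanned 500 kb or more and 326 spanned 200 to 500 kb. At 6 h the median difference from 0 h of the 7 genes was -1.27 in the stomach, -0.44 in the jejunum and -1.44 in the colon. For the 55 other genes of 500 kb or more it was -0.25 (quartiles -0.68 and -0.06), -0.22 (-0.40 and 0.00) and -0.40 (-0.76 and -0.18), and for the 9766 genes of all spans it was -0.01, 0.01 and -0.04. The 7 genes were selected for a low value on this contrast and then left out of the other set, so their lower median was built in. Slc8a1, Mipol1 and Ppp2r2b span less than 500 kb, and the mean of Mipol1, 6.69, is below the limit of brightness set for the others. In the colon 9 of the 55 (16.4%) were lower by a factor of 2 or more, against 0.737% of genes of all spans, and in the stomach 2 of 55 (3.64%) against 0.154%.

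By bins of span the medians in the colon at 6 h were 0.00 under 10 kb, -0.02 from 10 to 50 kb, -0.10 from 50 to 100 kb, -0.18 from 100 to 200 kb and -0.42 from 200 to 500 kb. In the stomach the bins stayed within 0.03 of 0 up to 100 kb, and reached -0.10 from 100 to 200 kb and -0.28 from 200 to 500 kb. The jejunum had no such order below 200 kb, with -0.06 under 10 kb and 0.10 from 50 to 100 kb. Dim probe sets carried much less of this. With them included the median of long genes was -0.07 in the stomach and -0.09 in the colon. Across 9766 genes the correlation of the 6 h difference with log10 span was -0.19 in the stomach, 0.09 in the jejunum and -0.29 in the colon, a description in which genes share arrays and are not independent replicates. It was not particular to 6 h. In the stomach it was -0.07 at 1 h, -0.06 at 24 h and -0.18 at 72 h, in the jejunum -0.09, 0.20 and -0.01, and in the colon -0.21, -0.05 and -0.17.

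The other long genes were closer to 0 h at 24 h too. For the 55 of 500 kb or more the medians were -0.11 in the stomach, 0.01 in the jejunum and -0.20 in the colon at 24 h, and -0.09, 0.03 and -0.06 at 72 h. At 1 h they were -0.01, -0.02 and -0.18, and in the colon at 1 h the genes of all spans had -0.09, so long genes were already lower in the colon at that time.

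**Figure D4:**
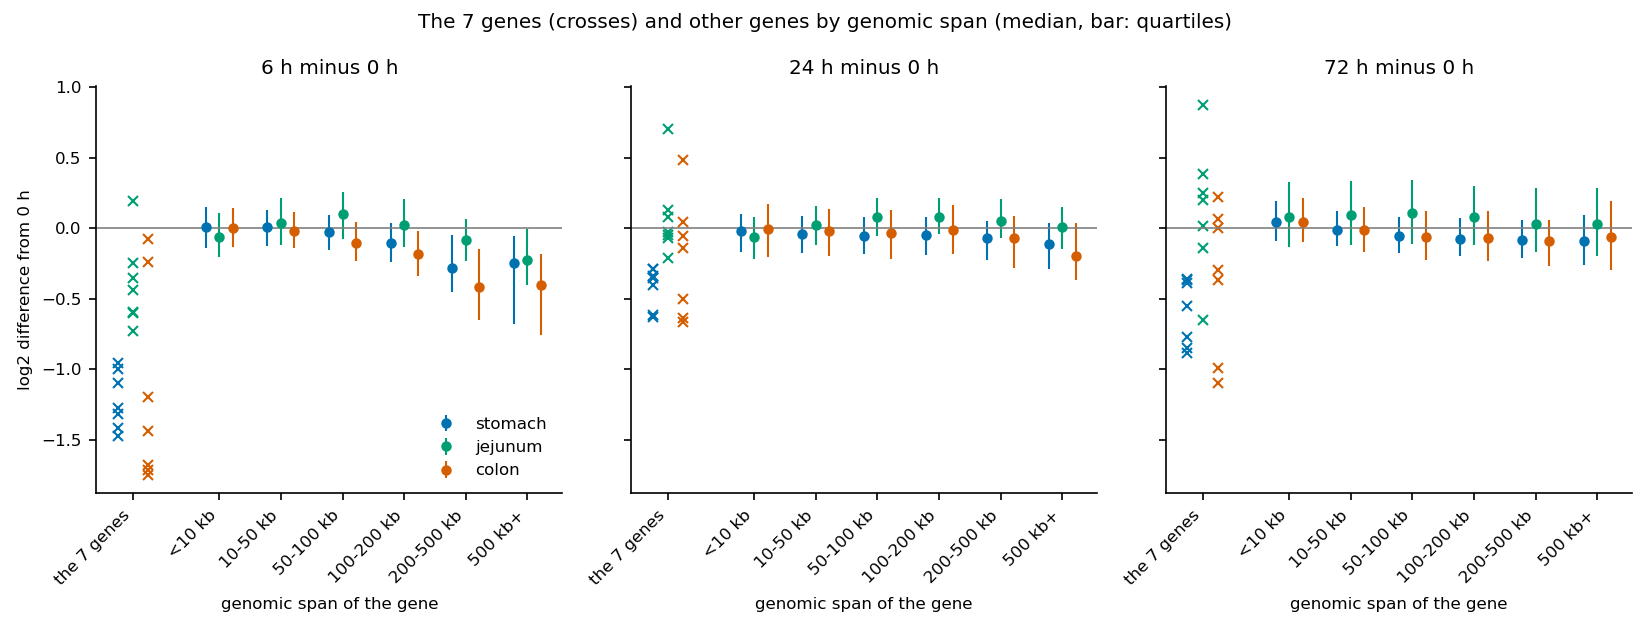
Log2 difference from 0 h at 6, 24 and 72 h of the 7 genes (crosses) and of other genes in bins of genomic span (points at the median, bars from the lower to the upper quartile), by tissue. At 6 h the medians of the 200-500 kb and 500 kb+ bins are at -0.28 and -0.25 in the stomach and at -0.42 and -0.40 in the colon, and at 24 h no bin is below -0.20.

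The 5 lowest of the long genes outside the list in each tissue at 6 h were named by that rank, with no test. In the colon they were Magi1 (-1.65, SE 0.21), a scaffold of cell junctions, Gphn (-1.53, SE 0.16), the inhibitory synapse scaffold gephyrin, Gmds (-1.40, SE 0.34), an enzyme of GDP-fucose synthesis, Rbms3 (-1.40, SE 0.11), an RNA-binding protein, and Dock1 (-1.30, SE 0.17), an activator of Rac. At 24 h they were -0.24, -0.55, -1.51, -0.52 and -0.38 from 0 h, so Gmds alone of these 5 was as low at 24 h as at 6 h. Gmds was also lowest in the jejunum, at -0.80 (SE 0.15) at 6 h and -0.67 at 24 h. In the stomach Rbms3 (-1.19), Cadps2 (-1.07), Magi1 (-0.98), Gphn (-0.96) and Zbtb20 (-0.88) were lowest, and Cadps2 was still at -0.75 at 24 h.

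Relatives and signalling partners of the 7 genes, listed by family and function whether or not they moved, were tested at 6 h, and 46 of 48 were measured. The lists were drawn up with earlier results of these data known, and this is the contrast on which the 7 genes were selected. The calls below are therefore not independent of that selection. Each gene is read by its brightest probe set, while the shares of all probe sets include dim ones. In the colon at 6 h 5 of them fell and 0 rose, against 0.986% and 0.2% of all probe sets. Ptprm (705 kb), a receptor tyrosine phosphatase like Ptprd, had a difference of -1.16 (limma adjusted p = 0.00493), and Ptprk (499 kb), another, -1.42 (adjusted p = 0.0106). Plcb4 (369 kb), which like Plcb1 answers Gq-coupled receptors, had -1.16 (adjusted p = 0.00284), Plce1 (309 kb), a phospholipase C under Ras control, -1.40 (adjusted p = 0.00894), and Prkca (399 kb), a kinase switched on by diacylglycerol, -0.79 (adjusted p = 0.0147). The median of the 46 was -0.15. When 1 of the 4 arrays was left out, between 1 and 6 were called lower, with 1 without colon array 1 of 6 h, 2 without array 1 of 0 h and 1 without array 2 of 0 h.

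In the jejunum and the stomach few were called. In the jejunum 1 of 46 fell, Prkca again (-0.39, adjusted p = 0.049), and 2 rose, the plasma membrane calcium pump Atp2b1 (0.73, adjusted p = 0.00668) and the scaffold subunit Ppp2r1b of protein phosphatase 2A (0.48, adjusted p = 0.0185), against 1.19% and 2.3% of all probe sets. None of these 3 was called when any 1 of the 4 arrays was left out. In the stomach 0 were called, against 0.00966% of all probe sets lower and 0.0226% higher, with Plcb4 at -0.84 (adjusted p = 0.136) and Ptprm at -0.75 (adjusted p = 0.131). Not every long relative was called, and a missing call does not show that a gene stayed level. The Esrrg coactivator Ppargc1a (656 kb) was at -0.36 in the colon (adjusted p = 0.328) and 0.10 in the stomach (adjusted p = 0.88), and the calcium release channel Ryr2 (586 kb) at -0.17 and -0.29 (adjusted p = 0.576 and 0.578).

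By family, 2 of 7 measured receptor tyrosine phosphatases and 2 of 6 phospholipases C were called lower in the colon at 6 h, and 0 of 3 Vps13 genes, 0 of 2 estrogen-related receptors, 0 of 3 sodium-calcium exchangers and 0 of 9 subunits of protein phosphatase 2A. Between 24 h and 1 h 0 of the 46 were called in any of the 3 tissues. Between 72 h and 24 h 3 were called lower and 5 higher in the jejunum, against 4.15% and 8.77% of all probe sets, and 3 lower and 1 higher in the colon, against 2.33% and 4.4%. Ptprm was among the 5 that rose in the jejunum (0.54, adjusted p = 0.0232).

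**Figure D5:**
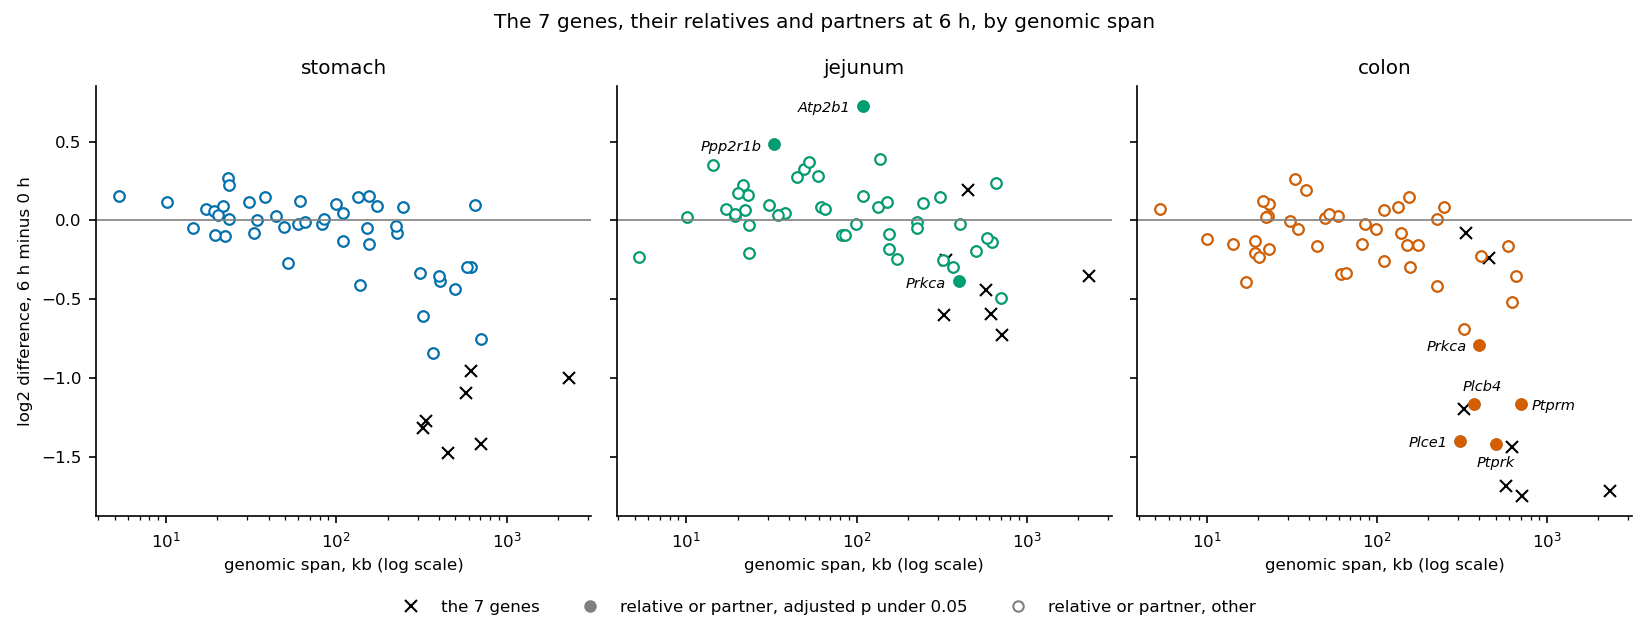
Log2 difference between 6 h and 0 h against genomic span on a log axis, for the 7 genes (crosses) and 46 relatives and partners (circles, filled and named at an adjusted p under 0.05), by tissue. The 5 filled circles of the colon lie between 309 and 705 kb, at -0.79 to -1.42.

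Markers of cell types in or near these tissues were read beside the 6 h values. The medians over each list of its genes' differences between 6 h and 0 h were -0.03 in each tissue for the 8 smooth muscle genes. They were from -0.15 to 0.24 for the 8 enteric neuron genes measured of 9, and from -0.04 to 0.11 for the 6 epithelial genes. Of all these genes, 0 were called. The 3 enteric glia genes measured of 4 were at 0.32 in the stomach, 0.19 in the jejunum and 0.25 in the colon. In the jejunum, where the members' median was -0.44, the 2 lymphocyte genes measured of 3 were at -0.40, with summed signals of 211 and 221 at 6 h, against 276 and 297 at 0 h. The 3 macrophage genes were at -0.32 there, with 301.8 and 302.2, against 362 and 377. The 3 colonocyte genes were at 0.66 in the colon, with 19109 and 16827, against 11527 and 12376. In the jejunum 1 of them, the anion exchanger Slc26a3, rose (1.02, limma adjusted p = 0.00544). The list did not rise with it as a whole. Its array medians in the jejunum were 7.31 and 7.28 at 6 h, against 7.68 and 7.44 at 0 h. The 3 genes of interstitial cells of Cajal, the pacemaker cells of gut muscle, were at -0.27, -0.13 and -0.27, and their summed signal in the colon was 617 and 862 at 6 h, against 1333 and 1089 at 0 h. Ano1, the 149 kb chloride channel gene of that list, had the largest of its differences in the colon (-1.03, adjusted p = 0.118). Pancreatic acinar genes had a list median 1.50 higher in the colon at 6 h, with summed signals of 4958 and 1347, against 1214 and 1140 at 0 h. The part of these cells in the members' values was not tested.

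The members resembled each other across the 15 groups to different degrees. After the mean of each tissue was taken off, the 21 pairs had correlations from 0.38 (Ptprd and Mipol1) to 0.93 (Plcb1 and Vps13b), with a median of 0.63. These describe 15 points that share arrays and hold the 6 h groups on which the genes were selected. The 3 genes most like each member by the same measure, among genes with a mean at or above the median, were long for some members and short for others. For Ptprd they were Elmo1 (0.98, 536 kb), Magi1 (0.95, 606 kb) and Psd3 (0.93, 564 kb), and for Plcb1 Agap1 (0.97, 436 kb), Celf2 (0.96, 825 kb) and Dock1 (0.95, 517 kb). Vps13b was most like Esrrg (0.93), Trappc9 (0.93, 477 kb) and Plcb1 (0.93), and Esrrg most like Arid1b (0.95, 356 kb), Magi1 (0.93) and Atp8a1 (0.93, 243 kb). The gene most like Slc8a1 was Rasgrp2 (0.96), which spans 17.2 kb, followed by Dtna (0.94, 356 kb) and Ncald (0.94, 432 kb). Mipol1 was closest to Ptgr2 (0.89, 31.8 kb), and Ppp2r2b to C2cd2 (0.88, 64.4 kb).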

How the data were processed

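Whole stomach, jejunum and colon of irinotecan-treated and untreated rats were measured on 30 Affymetrix arrays. The deposited values are log2 signals that the authors obtained with RMA (per the submitters' processing notes). No source used here gives its version or says whether all arrays were normalized together. No further scaling was applied.

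The file holds 31099 probe sets, and 57 of them, array controls, were dropped. Of the other 31042, 20826 had 1 gene symbol, 436 several and 9780 none in the platform annotation, and 20758 matched the RefSeq GRCr8 gene table by gene ID, which changed 0 symbols. Spans are that table's. The 5 times of a tissue were fitted together with limma 3.58.1 in R 4.3.3 (lmFit, contrasts.fit, eBayes), two-sided, with Benjamini-Hochberg adjustment over 31042 probe sets and a threshold of 0.05. The intervals are 95% intervals of that fit.

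The 7 genes and all gene lists were chosen with earlier results of these data known. The members' tests therefore use only contrasts among the 1, 24 and 72 h arrays, although the 0 h and 6 h arrays enter the estimate of the spread. Named genes are the 7, the 3 most like each, the 5 lowest other long genes in each tissue, and members of the lists. Relatives and partners were tested at 6 h against 0 h as well. Arrays that do not overlap means that both arrays of a group lie beyond both of the other. Replicate numbers only name the arrays. Within a tissue each p rests on the spread between pools, taken over its 5 times and moderated by eBayes over all probe sets. The number of arrays limits the precision. The code was tested on simulated data. Alternatives were quantile normalization, leaving out dim probe sets, other limma settings and sets of arrays, a replicate block and leaving out each array.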

Additional observations from a re-analysis of the deposited data

Results flagged for a closer look

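Several members moved in opposite directions in different tissues, with no overlap between the arrays compared. In differences from 0 h at 6, 24 and 72 h, from 13.5% to 43.8% of all probe sets did not overlap in a given direction and tissue. The share of all probe sets with opposite directions in different tissues was not counted, so nothing is read from the number of members. Except for 24 h against 1 h the difference between tissues was not tested. The jejunum and colon values of Mipol1 and Ppp2r2b come from signals below the median probe set's 7.03. Ppp2r2b at 6 h minus 0 h was -1.47 in the stomach and -0.24 in the colon, and 0.19 in the jejunum. Slc8a1 at 24 h minus 0 h was -0.36 in the stomach, 0.70 in the jejunum and 0.49 in the colon. At 72 h minus 0 h Slc8a1 was -0.36 in the stomach, 0.88 in the jejunum and -0.37 in the colon, Vps13b -0.55 in the stomach and 0.20 in the jejunum, and Mipol1 -0.88 in the stomach, 0.38 in the jejunum and 0.22 in the colon. At 72 h minus 24 h Mipol1 was -0.27 in the stomach, 0.43 in the jejunum and 0.27 in the colon. At 24 h minus 1 h Slc8a1 was -0.34 in the stomach and 0.55 in the colon, and Mipol1 -0.25 in the stomach and 0.18 in the colon. The interaction tests of that contrast across tissues gave limma adjusted p of 0.202 for Slc8a1 and 0.387 for Mipol1.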

How the results depend on the processing

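The median of the 7 genes at 6 h kept its direction in each tissue under the alternatives run, and counts of called probe sets over the whole array moved widely. The median over members at 6 h minus 0 h ran from -1.30 to -1.14 (stomach), -0.50 to -0.37 (jejunum) and -1.65 to -1.22 (colon) when 1 array was left out. Averaging a gene's probe sets gave -1.09, -0.29 and -1.07, and leaving out dim probe sets, which drops Mipol1, gave -0.52 in the jejunum. The median of other genes of at least 500 kb, under alternatives added after the data were seen, was -0.066 in the stomach and -0.094 in the colon with dim probe sets included, and kept its direction without any 1 array. The cause was not tested. Where an array is left out, the other array of its group is assumed to vary like the rest. The probe sets of Mipol1 in the jejunum and the colon, and the dim ones of Ptprd and Slc8a1, lie where signal over background limits what a difference can show.

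Probe sets called over all numbered 8, 84 and 236 for 24 h minus 1 h in stomach, jejunum and colon and 1, 4010 and 2088 for 72 h minus 24 h. Leaving out 1 array gave 0 to 28, 1 to 4180 and 0 to 253 for the first contrast and 0 to 361, 912 to 8965 and 293 to 3363 for the second. The counts of 28, 4180, 8965 and 3363 came without array 2 of 24 h in stomach, jejunum, jejunum and colon, and that of 361 without stomach array 2 of 72 h. The fit of the 1, 24 and 72 h arrays alone, which has fewer samples, gave 0, 0 and 1 for the first and 0, 1353 and 759 for the second. A fit of all 30 arrays gave 77 in the stomach and 460 in the colon for the first and 164 in the stomach and 3568 in the colon for the second. Quantile normalization gave 2 in the stomach for 24 h minus 1 h. Leaving out dim probe sets and limma with trend and robust variances each gave 0 in the stomach for 72 h minus 24 h. With the replicate block, 3 were called in the stomach for 72 h minus 24 h and 1 in the jejunum and 157 in the colon for 24 h minus 1 h, while over all times the numbers do not pair the arrays (5 of 15 same-numbered pairs across tissues and 11 of 30 across times had deviations correlated above 0.1, although at 24 h all 3 tissue pairs did, at 0.32 to 0.50). The block also took the call from Esrrg in the jejunum (adjusted p = 0.0674). The 27 tissue differences became 6 to 135 without 1 array. Relatives and partners called at 6 h, also an added alternative, were 1 to 6 lower in the colon, and 0 lower and 0 higher in the jejunum, without 1 array.

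Signs turned only among uncalled member values. For 72 h minus 24 h in the stomach Ptprd was -0.031 after quantile normalization. Without 1 array the values of that contrast ran in the stomach from -0.20 to 0.28 for Ptprd, -0.25 to 0.14 for Plcb1, -0.61 to 0.10 for Vps13b and -0.14 to 0.12 for Slc8a1, in the jejunum from -0.31 to 0.070 for Ptprd, -0.0034 to 0.54 for Vps13b and -0.19 to 0.53 for Slc8a1, and in the colon from -0.056 to 0.10 for Ppp2r2b. For 24 h minus 1 h they ran from -0.81 to 0.093 for Esrrg in the stomach, from -0.10 to 0.28 for Ptprd, -0.50 to 0.046 for Vps13b, -0.24 to 0.13 for Esrrg and -0.10 to 0.21 for Mipol1 in the jejunum, and from -0.51 to 0.11 for Ptprd and -0.45 to 0.020 for Esrrg in the colon. Of 414 repeats of the members' tests 377 kept their direction and their side of the threshold, 22 changed sign, 12 lost a call and 3 gained one. Slc8a1 in the jejunum gained a call for 24 h minus 1 h without array 2 of 24 h (0.73, adjusted p = 0.00247).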
